A study of Mus musculus with 6 samples.

Results

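The miRNAs described here are miR-193a, miR-193b, miR-365 and miR-455, which are known for their roles in brown and beige fat. They were chosen by name, as every arm of the 5 hairpins miR-193a, miR-193b, miR-365a, miR-365b and miR-455 in the deposited small RNA table, which gave 10 of its 1983 rows. Of the 10 rows, 6 were above the lowest reported value in at least 3 of the 6 libraries, compared with 329 rows in the whole table, and 4 were at that lowest value in every library. The rows miR-365a-3p and miR-365b-3p held identical values, since both genes give the same mature sequence, and they are called miR-365-3p here and counted once in the values, which leaves 5 distinct profiles.

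Small RNA was sequenced from epididymal white adipose tissue (WAT), the visceral fat pad beside the epididymis, of male C57BL6/J mice, with 1 library per animal. The Agt Tg group (3 mice) overexpressed angiotensinogen (Agt), the precursor of the hormone angiotensin II, under the aP2 promoter, and the Wt group (3 mice) had no transgene. The aP2 promoter is active in adipocytes and is known to be active in macrophages as well. The sample labels give a chow diet and the methods of the paper a low fat diet for these animals, and the sources used here give no age. The study asked which miRNAs differ in WAT when the renin angiotensin system is overactive.

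Brown fat burns lipid to make heat through the uncoupling protein UCP1, and beige adipocytes gain the same ability inside white depots. miR-193b and miR-365 are made from neighbouring hairpins, are enriched in brown fat and have been described as promoting brown adipocyte differentiation while restraining muscle genes. miR-455 has been described as a cold-induced miRNA that favours thermogenic adipocytes and is also abundant in cartilage. Epididymal WAT is a depot that browns little, and browning was not measured in these libraries.

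The mature sequences are shown because the arms and the paralogues can be told apart only where their bases differ. They are RefSeq sequences of GRCm38.p6, all 10 rows were matched to a mouse arm by number, and the capitals mark the seed, bases 2 to 8, through which a miRNA mainly pairs with its targets.
miR-365-3p: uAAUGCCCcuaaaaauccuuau
miR-193a-3p: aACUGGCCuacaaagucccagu
miR-193b-3p: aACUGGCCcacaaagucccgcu
miR-193b-5p: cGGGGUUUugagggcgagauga
miR-365-1-5p: aGGGACUUuugggggcagaugug
miR-365-2-5p: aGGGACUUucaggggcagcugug
miR-455-5p: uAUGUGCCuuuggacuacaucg
miR-455-3p: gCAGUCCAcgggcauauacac

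miR-193a-3p and miR-193b-3p had the same seed and were identical at 19 of 22 bases, with the substitutions U9C, A20G and G21C (miR-193a-3p first, counted from 1 at the 5′ end). The 5p arms of the 2 miR-365 genes shared their seed too and differed by U10C, G11A and A19C (miR-365-1-5p first), so that reads of these arms can be assigned to a copy. The seed of miR-365-3p was held by 1 of the 1679 mouse mature miRNAs in the RefSeq table, miR-365-3p itself. That of miR-455-5p was shared with miR-5129-3p only, and that of the miR-193 3p arms with no further miRNA. By number, the row miR-365a-5p was matched to mouse miR-365-1-5p and the row miR-365b-5p to mouse miR-365-2-5p.

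The genes lie at 3 places of the mouse genome (GRCm38, GENCODE M21). Mir193a (chromosome 11, 79711969 to 79712034, plus strand) and Mir365-2 (chromosome 11, 79726400 to 79726511, plus strand) are 14365 bases apart and overlap no other annotated gene. Mir193b (chromosome 16, 13449523 to 13449601, plus strand) and Mir365-1 (chromosome 16, 13453840 to 13453926, plus strand) are 4238 bases apart. Both of these lie opposite to an intron of the antisense gene Gm15738. Mir455 (chromosome 4, 63256851 to 63256932, plus strand) lies in an intron of Col27a1, a fibrillar collagen gene read from the same strand.

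The deposited values are on a log2 scale, as reads per 10000000 in a library. All values below 10 reads per 10000000 had been raised to 10 (3.32 on the log2 scale), and this lowest value is called the floor. Library totals ran from 6387766 to 10562634 reads, so the floor stood for 6.39 to 10.6 reads. Of the 6 libraries, Wt replicate 2 stood apart. Its summed epithelial markers (7 of 10 tested, miR-429 and miR-96 at the floor throughout) came to 54820 reads per 10000000, against 388 to 678 in the other libraries. Its epididymis and testis markers (2 of 4 tested, miR-449b at the floor throughout) came to 88164, against 867 to 1436. The adipocyte markers, with all 6 tested, lay between 537250 and 769270 reads per 10000000 over the libraries, and at 586870 in Wt replicate 2. The part these differences play in the results below was not tested. The comparisons of genotypes and the list medians are therefore also given without that library.

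The most abundant of the group was miR-365-3p, the shared guide strand of both miR-365 genes. It was at 12.63, 11.53 and 12.91 in Wt replicates 1, 2 and 3, and at 12.30, 13.00 and 12.54 in Agt Tg replicates 1, 2 and 3. Wt replicate 2 was the lowest and Agt Tg replicate 2 the highest of the 6, and the groups overlapped. These values stood for 2320 to 7554 reads per library. miR-365-3p ranked 57 from the top among the 329 tested rows by mean level and gave between 88.7% and 93.6% of the reads of the whole group in each library.

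miR-193a-3p, from the chromosome 11 gene pair, followed. Its log2 values were 8.75, 7.91 and 8.80 in Wt and 7.66, 8.80 and 8.64 in Agt Tg mice, or 189 to 438 reads per library. Agt Tg replicate 1 was the lowest library and Wt replicate 2 the next, so that each genotype had 1 low mouse and the ranges overlapped. By mean level it ranked 146 of 329.

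miR-365b-5p, the passenger arm that marks the chromosome 11 copy of miR-365, was lower still. It was at 7.05, 6.21 and 6.91 in Wt and at 6.69, 6.65 and 7.22 in Agt Tg mice, from 58 to 157 reads per library. The corresponding arm of the chromosome 16 copy, miR-365a-5p, was at the floor in all 6 libraries. Within a library miR-365b-5p was therefore at least 7.40 times (Wt replicate 2) to at least 14.9 times (Agt Tg replicate 3) the level of miR-365a-5p. The arm of the chromosome 11 copy was thus the one above the floor in 6 of 6 libraries.

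miR-455-5p, from the Col27a1 intron, had few reads. Its log2 values were 4.59, 5.94 and 4.27 in Wt and 5.04, 3.32 and 4.51 in Agt Tg mice. Wt replicate 2 held the most, 48 reads (95% exact Poisson interval 35.4 to 63.6, counting error only), and Agt Tg replicate 2 was at the floor, with at most 6 reads. The other 4 libraries had 18 to 34 reads, both genotypes mixed among them.

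miR-193b-5p, the passenger arm of the chromosome 16 gene, was the least abundant of those described and the only one whose genotypes did not overlap. It was at the floor in all 3 Wt libraries, which allowed at most 7, 7 and 9 reads in replicates 1, 2 and 3. In Agt Tg mice it was at 3.76, 3.97 and 3.51, which were 14, 10 and 12 reads. The Poisson intervals of these counts (95%, exact) were 7.65 to 23.5, 4.80 to 18.4 and 6.20 to 21 reads, so each reached down to what the floor allows. Since it passed the filter only through the Agt Tg libraries, the lack of overlap follows from the filter. Of the 329 tested rows, 0.912% (3 rows) were likewise at the floor in all Wt and above it in all Agt Tg libraries, and 0.608% (2 rows) showed the opposite.

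**Figure D1:**
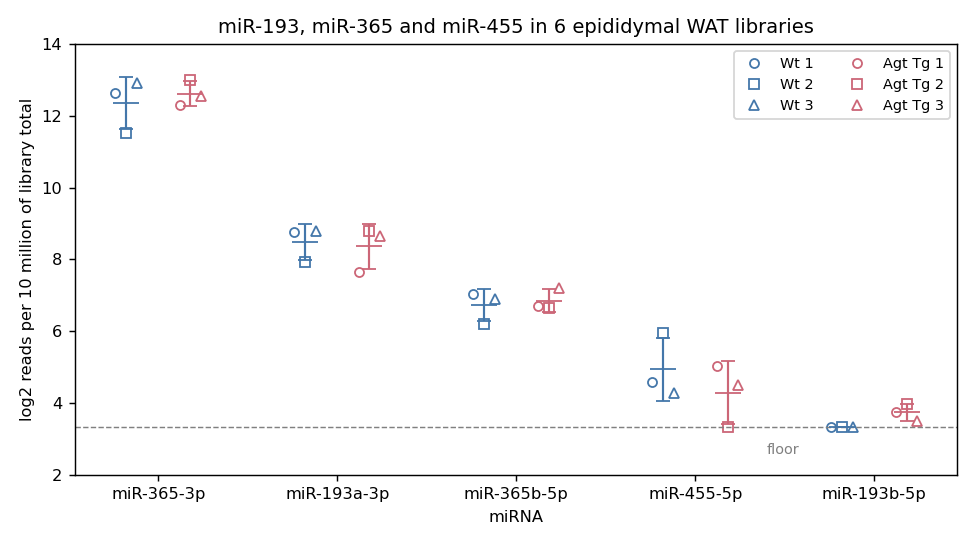
Log2 reads per 10000000 for the 5 distinct profiles (vertical axis) in Wt (blue) and Agt Tg (red) mice. Each symbol is 1 library, bars give the mean and SD of 3 libraries, and the dashed line is the floor at 3.32. miR-365-3p lies between 11.53 and 13.00 in all libraries, and miR-193b-5p is above the floor only in Agt Tg mice.

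The order of levels was miR-365-3p, miR-193a-3p, miR-365b-5p, miR-455-5p and miR-193b-5p in both genotypes. Neighbours in the upper part of the order did not overlap in any library: the lowest value of miR-365-3p (11.53) lay above the highest of miR-193a-3p (8.80), and the lowest of miR-193a-3p (7.66) above the highest of miR-365b-5p (7.22). The next pair was apart too, with 6.21 as the lowest value of miR-365b-5p and 5.94 as the highest of miR-455-5p. miR-455-5p and miR-193b-5p overlapped, at the floor and above it. The mature sequences have nearly the same length, 22 or 23 bases, but the efficiency of ligation in library preparation differs between miRNAs, so the order is one of reads.

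The 4 rows at the floor in every library were miR-193a-5p, miR-193b-3p, miR-365a-5p and miR-455-3p, with at most 6 to 10 reads each. miR-193b-3p is the guide strand on which most of the brown fat literature rests. The table carries human names, the methods name miRBase hairpins as the reference but neither their species nor the release, and the human and mouse mature sequences are known to differ within miR-193a-5p, miR-193b-3p and miR-455-3p. A value at the floor in these 3 rows was therefore not read as absence from the tissue. Whether mouse reads of these arms were counted in their rows could not be tested from the table. The same limit applies to other miRNAs at the floor throughout, such as the markers miR-429, miR-96 and miR-449b.

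The comparison of Agt Tg with Wt mice asked whether these miRNAs move with adipose Agt overexpression. None of the 6 tested rows passed the threshold, an unadjusted p of at most 0.05 and a log2 fold change of 1 or more in either direction, or an unadjusted p under 0.05 alone. Over all 329 rows, 4.86% passed the former and 9.12% the latter, and 0 rows (0%) reached an adjusted p under 0.05 (limma with Benjamini-Hochberg adjustment, smallest adjusted p = 0.382, with 30 rows at an unadjusted p under 0.05). Non-overlapping groups were found for 1 of the 6 rows, miR-193b-5p, compared with 17.6% of all tested rows in either direction and 6.99% with higher values in Agt Tg mice. Without Wt replicate 2 the counts at the threshold and at an unadjusted p under 0.05 were again 0 of 6.

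The Wt mean of miR-365-3p was 12.36 ± 0.73 and the Agt Tg mean 12.62 ± 0.36 (log2 values, SD, n = 3). The log2 fold change was 0.26 (standard error 0.39, limma adjusted p = 0.76), with a 95% interval from −0.65 to 1.17, or from 0.637 to 2.25-fold. Without Wt replicate 2 the sign turned, to −0.15.

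miR-193a-3p was at 8.49 ± 0.50 in Wt and 8.36 ± 0.62 in Agt Tg mice (SD, n = 3). It differed by −0.13 (standard error 0.41, limma adjusted p = 0.891, 95% interval −1.09 to 0.83). The sign depended on single libraries, and the value ran from −0.41 without Wt replicate 2 to 0.23 without Agt Tg replicate 1. It was also above 0 without Wt replicate 1 (0.006) and without Wt replicate 3 (0.03). Under TMM scaling it was 0.01.

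The chromosome 11 passenger arm miR-365b-5p was at 6.72 ± 0.45 in Wt and 6.85 ± 0.32 in Agt Tg mice (SD, n = 3). They differed by 0.13 (standard error 0.34, limma adjusted p = 0.863, 95% interval −0.68 to 0.94). It was −0.13 without Wt replicate 2 and −0.05 without Agt Tg replicate 3.

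For miR-455-5p the means were 4.93 ± 0.88 in Wt and 4.29 ± 0.88 in Agt Tg mice (SD, n = 3), and the log2 fold change was −0.65 (standard error 0.60, limma adjusted p = 0.671, 95% interval −2.05 to 0.76). This was the widest interval of the group, and 90.3% of the tested rows had a smaller standard error. The difference came down to −0.14 without Wt replicate 2, its highest library, and to −0.16 without Agt Tg replicate 2, which was at the floor. In bulk tissue a lower level may stand for fewer cells of a type or for less RNA per cell, and these cannot be told apart.

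For miR-193b-5p the fitted log2 fold change was 0.42 (SE 0.27, limma adjusted p = 0.574). Every Wt value was at the floor, so the difference of these means may be understated. Since the row passed the filter through the Agt Tg libraries alone, the difference may also be overstated. The values give neither amount, and the standard error and interval allow for neither. With no filter on low values its log2 fold change was again 0.42, with an unadjusted p by limma of 0.0389. Over all alternatives its adjusted p by limma was 0.452 or more.

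**Figure D2:**
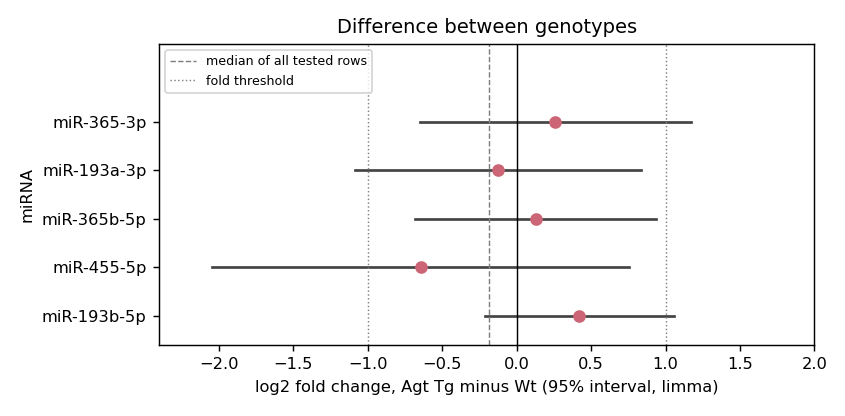
Log2 fold change (Agt Tg minus Wt, horizontal axis) of the 5 profiles with 95% intervals from limma, 3 libraries per genotype. The dashed line is the median of all 329 tested rows (−0.19) and the dotted lines mark log2 fold changes of −1 and 1. All 5 intervals include 0, and that of miR-455-5p is the widest, from −2.05 to 0.76. The interval of miR-193b-5p takes its Wt values at the floor as if they were measured.

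The median log2 fold change of all tested rows was −0.19, and −0.06 under TMM scaling. Relative to the median of −0.19, the changes were 0.45 for miR-365-3p, 0.06 for miR-193a-3p, 0.32 for miR-365b-5p, −0.46 for miR-455-5p and 0.61 for miR-193b-5p.

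Ratios within a library were compared because they do not depend on how libraries are scaled. The arm ratio of miR-365, miR-365-3p over miR-365b-5p, was 5.58, 5.32 and 6.0 (log2) in Wt and 5.61, 6.36 and 5.33 in Agt Tg mice, from 40-fold to 82-fold. The genotypes overlapped, with a difference of 0.13 (exact permutation test, two-sided, p = 0.6, adjusted over the 2 ratios 0.6, where 3 mice against 3 cannot give a p under 0.1). The sign of this difference turned without Wt replicate 2 (−0.025) and without Agt Tg replicate 2 (−0.16). Across all libraries this ratio moved by 1.04 (log2), about as much as the level of miR-365b-5p itself (1.01). miR-365-3p over miR-193a-3p was 3.88, 3.62 and 4.11 in Wt and 4.65, 4.21 and 3.91 in Agt Tg mice. The Agt Tg mean was higher by 0.39 (exact permutation test, two-sided, p = 0.2, adjusted 0.4), and Agt Tg replicate 3 lay below Wt replicate 3. Without Agt Tg replicate 1, the library with the least miR-193a-3p, the difference was 0.19, and without Wt replicate 2 it was 0.26.

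Taking both arms that come from chromosome 11 alone, miR-193a-3p over miR-365b-5p was 1.71, 1.70 and 1.89 (log2) in Wt mice, a spread of 0.11 (SD, n = 3). In Agt Tg mice it was 0.97, 2.15 and 1.42, a spread of 0.60 (SD, n = 3), with values on both sides of the Wt libraries. This ratio was chosen after its values were seen and was not tested.

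**Figure D3:**
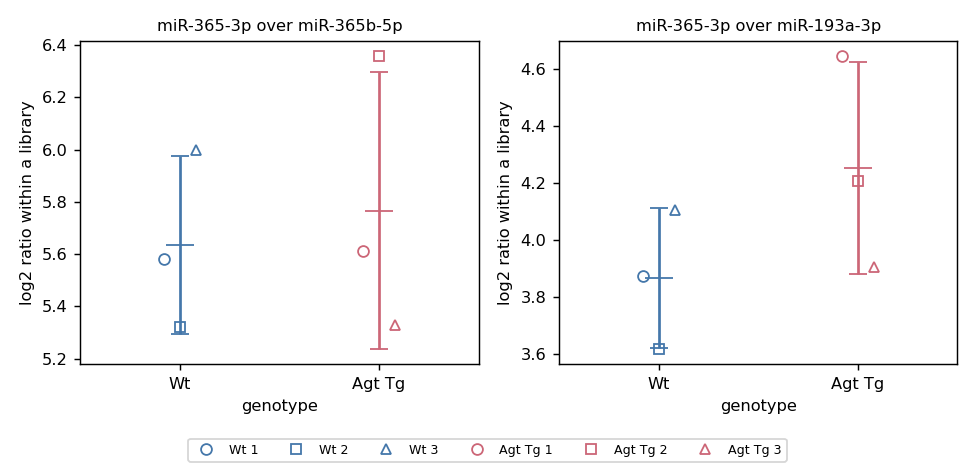
Log2 ratio within each library (vertical axes) of miR-365-3p over miR-365b-5p (left) and over miR-193a-3p (right) in Wt (blue) and Agt Tg (red) mice, with symbols for libraries and bars for the mean and SD of 3. The genotypes overlap in both panels. In the left panel Agt Tg replicate 2 is highest at 6.36, and in the right panel Agt Tg replicate 1 is highest at 4.65.

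Correlations among the members differed in sign. Over the 6 libraries, Pearson's r of the log2 values was 0.77 between miR-365-3p and miR-193a-3p (0.81 without Wt replicate 2) and 0.65 between miR-365-3p and miR-365b-5p, and the latter was −0.19 without Wt replicate 2. miR-455-5p ran opposite to miR-365-3p, with r = −0.94 over 6 libraries and −0.89 without Wt replicate 2. These are descriptions over 6 libraries, and within each library all rows share its depth and scaling.

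The rows with the most similar profiles were found for each member among all tested rows. For miR-365-3p they were miR-378a-5p (r = 0.98, n = 6 libraries), miR-23a-3p (0.97) and miR-451a (0.92). The values of miR-378a-5p were 9.06, 8.21 and 9.31 in Wt and 8.63, 9.47 and 8.91 in Agt Tg mice, in the same order of libraries as those of miR-365-3p. miR-378a is encoded in an intron of Ppargc1b, a coactivator gene of mitochondrial metabolism. Without Wt replicate 2, r was 0.997 for miR-378a-5p, 0.90 for miR-23a-3p and 0.62 for miR-451a, an erythrocyte miRNA.

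For miR-193a-3p the nearest rows were 3 of the miR-378 family, miR-378c (r = 0.97, n = 6 libraries), miR-378a-3p (0.94) and miR-378d (0.93), with 0.98, 0.99 and 0.94 without Wt replicate 2. These rows have near-identical sequences, so reads may be shared among them. miR-378a-3p was at 15.93, 15.24 and 16 in Wt and at 15.42, 15.95 and 15.93 in Agt Tg mice. Like miR-193a-3p it was lowest in Wt replicate 2 and Agt Tg replicate 1, and its level differed between genotypes by 0.04 (standard error 0.26, limma adjusted p = 0.927).

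miR-455-5p was nearest to miR-199a-3p and miR-199b-3p, which hold identical values (r = 0.98, n = 6 libraries), and to miR-214-5p (0.97). miR-199a and miR-214 share a transcript and are abundant in fibroblasts and other mesenchymal cells. miR-199a-3p was at 14.37, 15.23 and 13.90 in Wt and at 14.59, 13.58 and 14.19 in Agt Tg mice, the same order of libraries as miR-455-5p, and r was 0.96 without Wt replicate 2. The order of miR-455-5p is uncertain, since its Poisson intervals (95%, exact) overlapped. They were 10.7 to 28.4 for the 18 reads of Wt replicate 1 and 11.4 to 29.7 for the 19 of Wt replicate 3. For the 24 reads of Agt Tg replicate 3 the interval was 15.4 to 35.7.

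The nearest rows to miR-365b-5p were miR-22-3p (r = 0.90), miR-151a-5p (0.84) and miR-151b (0.84), and without Wt replicate 2 the values were 0.76, 0.51 and 0.52. For miR-193b-5p they were miR-4488 (0.96), miR-4651 (0.95) and miR-612 (0.95), 3 rows that were higher in all Agt Tg than in all Wt libraries and lay near the floor in Wt mice. Since miR-193b-5p was above the floor only in Agt Tg libraries, this difference between genotypes follows from picking rows by r.

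**Figure D4:**
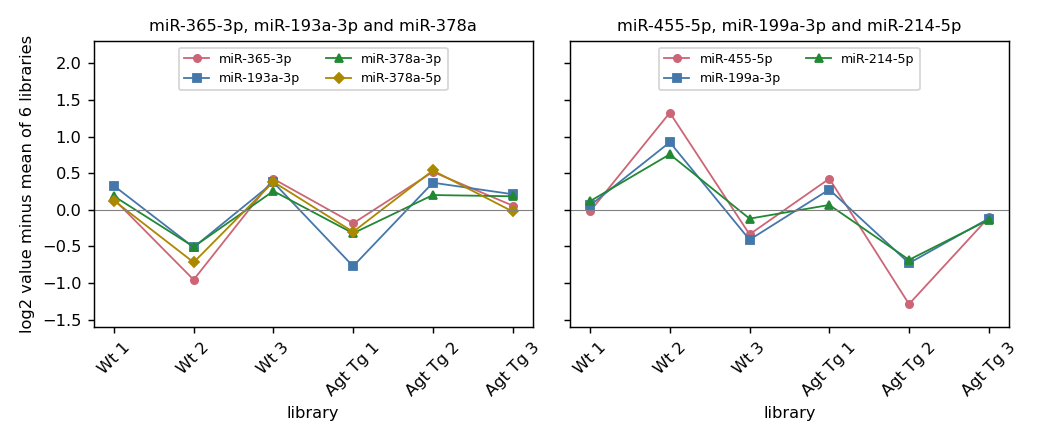
Log2 value of each library minus the mean of all 6 libraries (vertical axis), for miR-365-3p, miR-193a-3p and both arms of miR-378a (left) and for miR-455-5p, miR-199a-3p and miR-214-5p (right). Lines only join the points of 1 miRNA, since libraries have no order. On the left the profiles share a low value in Wt replicate 2, and on the right they are highest in Wt replicate 2 and lowest in Agt Tg replicate 2.

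In Wt replicate 2, miR-365-3p lay 1.15 (log2) below the mean of the other 5 libraries, miR-365b-5p 0.69 below and miR-193a-3p 0.62 below, while miR-455-5p lay 1.59 above. The erythrocyte markers (all 3 tested) were also lowest there, at 50991 reads per 10000000 against 93203 to 208130 in the others. The part of the epithelial, epididymal and erythrocyte markers in these departures was not tested.

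Other miRNAs described in brown and beige fat were compared through 2 lists. Of 12 miRNAs reported to favour thermogenic fat, all had a tested arm, which gave 17 rows. None of the 17 passed the threshold in either direction, and none had an unadjusted p under 0.05. Their median log2 fold change was −0.07 (−0.08 without Wt replicate 2, and 0.06 under TMM scaling), compared with −0.19 over all tested rows. The most abundant were miR-26a-5p (0.11, standard error 0.15), miR-378a-3p (0.04, standard error 0.26) and miR-30c-5p (−0.20, standard error 0.18). The highest difference was that of miR-196b-5p, from the Hox gene clusters, at 1.81 (standard error 0.88, limma adjusted p = 0.531), where Wt replicate 2, at 6.83, overlapped with the Agt Tg values of 5.88 to 7.88. Without Wt replicate 2, 2 of the 17 rows passed the threshold, miR-196a-5p at 2.84 (standard error 0.60) and miR-196b-5p at 2.76 (standard error 0.60), both with a limma adjusted p of 0.299, while 23 of all 329 rows (6.99%) passed it in that setting. Without Wt replicate 1, 1 row did, miR-129-2-3p at −1.36 (standard error 0.54, limma adjusted p = 0.72), as did 12 of all rows (3.65%).

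Of 12 miRNAs reported to restrain thermogenic fat, 10 had a tested arm, in 18 rows, and miR-133b and miR-155 were at the floor throughout. These floor values too were not read as absence from the tissue. None of the 18 rows passed the threshold, and 1 had an unadjusted p under 0.05, miR-214-3p, at 11.05, 11.36 and 11.45 in Wt and 11.15, 10.36 and 10.16 in Agt Tg mice (log2 fold change −0.73, standard error 0.30, limma adjusted p = 0.522). Without Agt Tg replicate 1 it passed the threshold, at −1.02 (standard error 0.23, limma adjusted p = 0.187), as did 35 of all rows (10.6%). In 9 of the 13 alternatives, among them TMM scaling and leaving out Wt replicate 2, no row of this list had an unadjusted p under 0.05. The list's median log2 fold change was −0.28, and −0.24 without Wt replicate 2. The most abundant rows were miR-125b-5p (0.13, standard error 0.21), miR-27b-3p (0.08, standard error 0.25) and let-7i-5p (−0.17, standard error 0.23).

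Among the cell type lists, the leukocyte markers (all 4 tested, 6 rows) had a median log2 fold change of −0.51, and −0.64 without Wt replicate 2. Without Agt Tg replicate 1 it was −1.03, and 2 of the 6 rows passed the threshold, miR-142-3p at −1.33 and miR-342-5p at −1.13 (limma adjusted p = 0.187 for both). In that setting 35 of all 329 rows (10.6%) passed it. Without Wt replicate 3, miR-142-3p passed it too, at −1.22 (limma adjusted p = 0.583), as did 22 of all rows (6.69%). The erythrocyte median was 0.40 and the adipocyte median 0.06, and both turned sign without Wt replicate 2, to −0.05 and −0.10. For the cartilage miRNA miR-140 (2 rows) the median was −0.53 (−0.49 without Wt replicate 2), for the endothelial miR-126 0.23 (0.16) and for the muscle markers (2 of 7 tested) −0.41 (−0.24). The epithelial and epididymal medians were −2.39 and −1.90, and −0.18 and 0.16 without Wt replicate 2. Of all the list rows, 1 passed the threshold, the epithelial miR-205-5p, compared with 16 of all 329 rows (4.86%). Agt Tg minus Wt, its log2 difference was −2.17, where limma gave an SE of 0.65 and 0.382 as the adjusted p. Leaving out Wt replicate 2 brought it to −1.48. The epithelial miR-200b-3p passed as well once Wt replicate 3 was left out, at −3.59 (SE 1.46, adjusted p by limma 0.603). The share of all rows there was the 6.69% given above. Some miRNAs stand in a thermogenesis list and a cell type list at once, namely miR-378a and miR-26b (adipocytes), miR-182 (epithelium) and miR-133a and miR-133b (muscle).

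Seed matches in 3′ UTRs of genes tied to these miRNAs are shown to place the seeds beside targets described for them. Runx1t1 encodes a transcriptional corepressor and Ndn (necdin) a repressor of adipogenesis, while Hif1an hydroxylates HIF1A, Igfbp5 binds insulin-like growth factors and Cdon is a cell surface receptor of the muscle lineage. The longest annotated 3′ UTR of each gene was searched on its own strand for the 7 bases complementary to bases 2 to 8, shown in capitals, GGCCAGT for the miR-193 3p arms, GGGCATT for miR-365-3p, GGCACAT for miR-455-5p and TGGACTG for miR-455-3p.
Runx1t1, miR-193: tagaacacagaGGCCAGTaacgggtcgtaa
Igfbp5, miR-193: aatatatcttaGGCCAGTatcctagaccta
Cdon, miR-365: aaagggtttgaGGGCATTtttggatagttt
Hif1an, miR-365: tcaggtatgagGGGCATTttctgaatgcct
Ndn, miR-455-3p: tccatgtggaaTGGACTGatttgaactgga
Runx1t1, miR-455-3p: ttttccttagtTGGACTGtaatgtatggtc

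On GRCm38, the Runx1t1 matches lie on chromosome 4, plus strand, at 13890066 to 13890072 (miR-193) and 13893553 to 13893559 (miR-455-3p). The others shown lie on chromosome 1 at 72859979 to 72859985 (Igfbp5, minus strand), chromosome 9 at 35505616 to 35505622 (Cdon, plus), chromosome 19 at 44575687 to 44575693 (Hif1an, plus) and chromosome 7 at 62349827 to 62349833 (Ndn, plus). The 877 bases of the Ndn 3′ UTR held 2 matches to miR-455-3p, whereas 9.55% of 3′ UTRs of like length (within 20%) held at least 1. Hif1an held 2 as well, in 5116 bases, where 31.1% of like length held 1 or more, and Cdon held 1. For miR-193 the share of like length was 22.2% in Runx1t1 and 24.8% in Igfbp5. The shares for miR-365-3p in Cdon and Hif1an and for miR-455-3p in Runx1t1 and Cdon ran from 17% to 25.8%. The miR-193 motif had no match in Cdon, Ndn and Hif1an. That of miR-365-3p had none in Runx1t1, Igfbp5 and Ndn, and that of miR-455-3p none in Igfbp5. miR-455-5p, the arm that was measured above the floor, had 0 matches in the 5 genes. Its share of like length ran from 4.79% (Ndn) to 25.2% (Hif1an). Over all 20997 genes with an annotated 3′ UTR the motifs were found in 9.31% (miR-193), 7.73% (miR-365-3p), 7.92% (miR-455-5p) and 11.9% (miR-455-3p). These are matches of letters, and neither binding nor target mRNA was measured in the libraries.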

How the data were processed

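The small RNA libraries of 3 Wt and 3 Agt Tg mice were grouped by the genotype in the sample labels. For these files the authors aligned reads to miRBase hairpins, kept those on mature arms and ran the Gunaratne Next Generation Pipeline (genome build mm10 per the labels). Neither the species and release of the miRBase reference nor the tolerance for mismatches is given in the sources used here. The deposited values are in log2, scaled by the authors to reads per 10000000, and anything lower than 10 was set to 10. Within each library, 1924 of 1924 values above this floor were whole reads within 0.02 reads, which gave the totals. The table covers the whole series, and 0 value columns lacked a sample.

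The 329 rows with 3 or more libraries above the floor entered a test of the deposited log2 values by limma 3.58.1 in R 4.3.3 (variance trend, genotype as the only term, Benjamini-Hochberg adjustment over the 329), and standard errors and intervals are those of limma. Within-library ratios were compared with exact permutation tests in scipy 1.17.1. The limma test was tried on simulated data. Nothing says how the mice were related, so p-values measure the spread between these samples. Alternatives were limma on log2(CPM + 1), with CPM derived from the deposited values, TMM scaling (30% of log ratios and 5% of levels trimmed), limma-voom, no filter, a mean CPM of at least 10, miR-191-5p as the scaling reference, the replicate number as a block, and leaving out each library in turn. The members and lists were chosen with earlier results of these data known. Every arm of the members was named, with the 3 rows of highest Pearson correlation to each, and from the lists the 3 most abundant rows and any at the threshold. Any other miRNA named was chosen after its values were seen. Sequences came from RefSeq (GRCm38.p6) and GENCODE M21 and figures were drawn with matplotlib 3.10.9.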

Additional observations from a re-analysis of the deposited data

How the results depend on the processing

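The count of members at the threshold was 0 in all alternatives. At an unadjusted p under 0.05 it was also 0, except with no filter, where it was 1 (miR-193b-5p). The log2 fold change of miR-193b-5p was 0.42 both there and in the main fit, where its unadjusted p by limma was 0.16. How many of the 373 rows tested with no filter had an unadjusted p under 0.05 was not counted. Over all tested rows, 16 at the threshold became 7 on log2(CPM + 1), 3 with a mean CPM of at least 10, and 12 to 35 with 1 library left out (35 without Agt Tg replicate 1). No alternative gave a row at an adjusted p under 0.05. Rows without overlap between genotypes, 58 in all, were 34 with a mean CPM of at least 10 and 73 to 130 with 1 library left out (130 without Wt replicate 2, 127 without Agt Tg replicate 1). Of the list rows, 1 was at the threshold, against 0 with a mean CPM of at least 10 and 1 to 4 with 1 library left out (4 without Agt Tg replicate 1, 3 without Wt replicate 2 or 3, 2 without Wt replicate 1). The log2 fold change of miR-193a-3p changed sign under TMM scaling (0.006). With 1 library left out it ran from −0.41 to 0.23, that of miR-365-3p from −0.15 to 0.54, that of miR-365b-5p from −0.13 to 0.29, that of miR-455-5p from −1.02 to −0.14 and that of miR-193b-5p from 0.31 to 0.54. The ratio of miR-365-3p to miR-365b-5p differed between genotypes by −0.16 to 0.35 and that of miR-365-3p to miR-193a-3p by 0.19 to 0.56. miR-193b-5p and miR-455-5p were not among the rows with a mean CPM of at least 10. Apart from fewer rows or fewer libraries entering a fit, the cause of these changes was not tested.

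With the replicate number as a block no member passed the threshold (unadjusted p = 0.562 for miR-365-3p and 0.25 for miR-193b-5p, limma). A block leaves the log2 fold changes of a balanced design as they are (0.26 for miR-365-3p). Same-numbered libraries deviated together with r = 0.22, −0.18 and −0.21 for numbers 1, 2 and 3. Libraries with different numbers gave r from −0.30 to 0.28. These values show no pairing by number, but with 3 libraries per genotype they cannot exclude one. Levels under 6.39 to 10.6 reads were replaced by the floor in the deposited table and could not be analysed.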
